A study of Homo sapiens with 6 samples.

Results

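The transcripts described here encode 10 tetraspanins with known roles in cell motility and extracellular vesicles: CD9, CD63, CD81, CD82, CD151, TSPAN4, TSPAN7, TSPAN10, TSPAN14 and TSPAN15. They were chosen by symbol, and all 10 were among the 18539 genes of the deposited table. RNA came from A375, an established human melanoma line. One group of 3 libraries was made from cells transduced with a control hairpin (shControl), and the other 3 were from cells transduced with a hairpin against MMP9 (shMMP9), which encodes a secreted gelatinase. Both groups carried a pLKO.1 lentiviral vector and had been selected with puromycin; the labels give 1 hairpin sequence for MMP9 and name neither clones nor separate cultures, so p-values measure the spread between these libraries, which may be technical.

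Tetraspanins are small proteins that cross the membrane several times and expose a large extracellular loop with a conserved cysteine motif. They bind each other and lateral partners such as integrins, immunoglobulin-family proteins and metalloproteinases, and so form membrane microdomains. CD9, CD63 and CD81 are the customary markers of exosomes; CD63 also resides in late endosomes and, in pigment cells, takes part in sorting melanosomal cargo. CD82 is known as a suppressor of metastasis, CD151 as the partner of laminin-binding integrins, and TSPAN4 as an organiser of migrasomes, the vesicles that migrating cells leave on their retraction fibres.

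Across the libraries, the listed genes held 21854111 to 28005531 estimated reads. MMP9 stood at 26.1, 24.3 and 28.7 scaled counts in shControl and at 16.2, 14.6 and 17.1 in shMMP9, a ratio of means of 0.605. A scaled count is the gene's count after scaling of all libraries to a common upper quartile, a scaling inferred from the deposited values. Of the melanocyte lineage markers, SOX10 stood at a mean of 378 in shControl and 785 in shMMP9 and MITF at 35.5 and 27.7, and the summed level of the 8 listed markers ran from 456 to 488 and from 1001 to 1082; PMEL, however, stood at 1.70 and 1.76, the means of MLANA and TYRP1 were under 0.4 in both groups, and TYR and DCT were not among the listed genes. Mitochondrial genes held 1.64 to 1.79% of the summed values in shControl and 0.617 to 0.708% in shMMP9; the part of this difference in the results below was not tested. Marker lists of other cell types gave low sums except for keratinocytes, at 70.0 to 81.6 in shControl and 127 to 136 in shMMP9, of which KRT10 made up most. PTPRC, CD3E, TP63, CDH1 and CLDN5 were not listed. The fibroblast sum ran from 46.3 to 52.5 and from 27.0 to 29.5, the endothelial sum from 9.29 to 11.5 and from 18.2 to 20.6, and the leukocyte sum from 4.03 to 4.52 and from 8.13 to 8.70.

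Sequences before a RefSeq start of 4 members are shown because these genes changed most among those with sequence free of annotated exons. They are RefSeq sequences on GRCh38.p14, taken from the 250 bases before an annotated start and cut where a GENCODE exon begins. Those of TSPAN15 and TSPAN4 lie before the GENCODE gene start, whereas those of TSPAN10 and CD9 lie inside the annotated gene, before a start used by some of its transcripts. TSPAN10 is at chr17:81642055-81642304, TSPAN15 at chr10:69451215-69451464, CD9 at chr12:6200150-6200315 and TSPAN4 at chr11:842602-842807, all on the plus strand. Capitals mark matches, on either strand, to the AP-1 motif TGANTCA, the E-box forms CACGTG and CATGTG, and the GC-box GGGCGG.
TSPAN10: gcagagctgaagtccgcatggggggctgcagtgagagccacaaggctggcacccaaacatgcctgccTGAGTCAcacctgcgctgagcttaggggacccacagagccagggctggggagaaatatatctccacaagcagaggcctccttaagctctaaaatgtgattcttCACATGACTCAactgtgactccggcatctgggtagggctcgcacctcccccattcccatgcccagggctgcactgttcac
TSPAN15: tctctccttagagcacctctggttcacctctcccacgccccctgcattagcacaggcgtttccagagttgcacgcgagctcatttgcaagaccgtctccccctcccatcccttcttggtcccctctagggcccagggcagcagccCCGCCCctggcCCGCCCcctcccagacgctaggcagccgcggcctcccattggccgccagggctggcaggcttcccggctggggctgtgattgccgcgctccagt
CD9: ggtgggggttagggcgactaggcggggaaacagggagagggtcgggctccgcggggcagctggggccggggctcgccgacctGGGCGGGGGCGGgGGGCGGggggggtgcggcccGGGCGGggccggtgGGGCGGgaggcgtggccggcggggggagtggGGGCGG
TSPAN4: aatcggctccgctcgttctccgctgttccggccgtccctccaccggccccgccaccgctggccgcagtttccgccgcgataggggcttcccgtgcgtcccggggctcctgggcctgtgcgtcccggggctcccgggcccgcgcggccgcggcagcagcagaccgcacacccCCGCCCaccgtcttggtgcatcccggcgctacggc
The TSPAN10 sequence held 2 AP-1 matches, one of which overlapped a CATGTG match (CACATG on this strand) by 2 bases. Over the 250 bases before 35116 starts, 6.57% held the AP-1 motif, 9.42% held CATGTG, 6.34% held CACGTG and 42.6% held a GC-box. TSPAN15 held 2 GC-boxes, CD9 held 6 and TSPAN4 held 1 over the sequence shown. A match is a description of these letters and not evidence that a factor binds there.

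CD9, CD63, TSPAN4, TSPAN15 and CD82 rose in shMMP9, CD81, CD151 and TSPAN10 fell, and TSPAN14 was not called. Changes among these genes ran from -0.61 to 0.90 on the log2(scaled count + 1) scale. On that scale 0 of the 9 tested reached 2-fold, against 8.18% of all tested genes, and with so few members this count says little. The added 1 lowers the change of genes with few reads: TSPAN15, at 0.90, had a ratio of means of 3.51. Calls were made with limma at a Benjamini-Hochberg adjusted p under 0.05 over 17194 tested genes; 9 of the 10 members passed the filter on low values and TSPAN7 did not. Of all tested genes 57.5% were called, 25% as higher and 32.5% as lower, so a call is the commonest outcome in this comparison. Among the 9 tested members 5 were higher and 3 lower. The 5 include TSPAN15, which would not have passed the filter on its shControl libraries alone (21, 18 and 6 estimated reads) and is high in shMMP9. The groups did not overlap for any of the 9, against 62.7% of all tested genes. A lower level in bulk RNA cannot be told apart from fewer cells that express the gene.

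**Figure D1:**
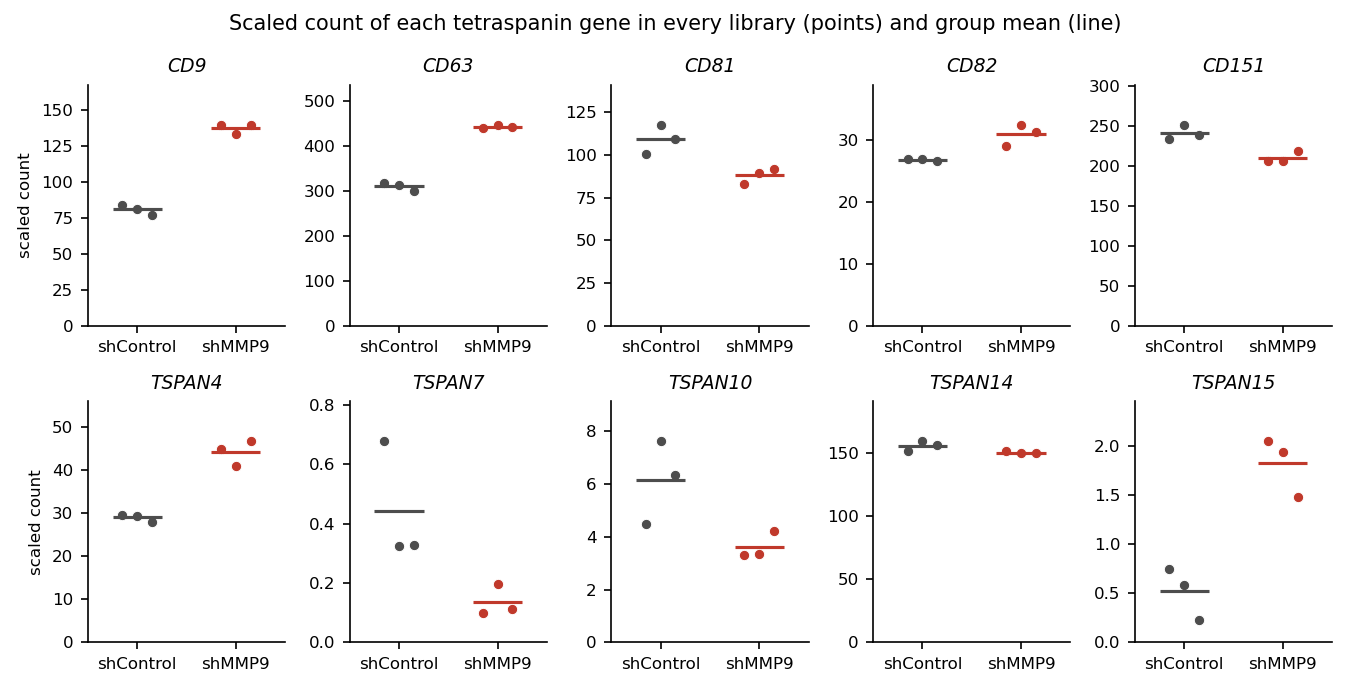
Scaled count (linear axis from 0, one panel per gene) in each of the 3 shControl and 3 shMMP9 libraries as points, with the group mean as a line. CD9, CD63 and TSPAN4 lie well above their control values in every shMMP9 library, and CD81, CD151 and TSPAN10 lie below theirs.

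Among the exosome markers, CD9 and CD63 moved one way and CD81 the other. CD9, which restrains or promotes migration depending on its partners, stood at 84.3, 81.6 and 77.2 scaled counts in shControl and at 140.0, 133 and 139 in shMMP9. All shMMP9 libraries were thus above all shControl libraries, with a ratio of means of 1.70. The log2 fold change of CD9 was 0.76 (SE 0.0504, adjusted p = 3.40e-08, limma). CD63 stood at 319, 313 and 300.2 in shControl and at 441, 448 and 443 in shMMP9. The CD63 libraries of each group lay close together, and the ratio of means was 1.43. Its log2 fold change was 0.51 (SE 0.0460, adjusted p = 6.08e-07, limma). CD81, a partner of EWI-family proteins, stood at 101, 118 and 109 in shControl and at 82.8, 89.4 and 91.9 in shMMP9. It was lower in each shMMP9 library, by -0.31 (SE 0.0625, adjusted p = 0.000923, limma). Per kilobase of exon, the CD9 to CD81 ratio was 1.49, 1.23 and 1.26 in shControl and 3.002, 2.65 and 2.69 in shMMP9. This ratio does not depend on how libraries are scaled to each other, and it was not a planned comparison. Every shMMP9 library was above every shControl library for CD9 and below for CD81, so its 2 ranges could not overlap. The exact two-sided permutation p = 0.1, the smallest that 3 libraries against 3 allow, was thus fixed in advance and adds no support.

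CD82 and CD151, known for opposite roles in invasion, changed little. CD82 stood at 26.9, 26.8 and 26.7 in shControl and at 29.04, 32.4 and 31.3 in shMMP9. It rose by 0.20 (SE 0.0647, adjusted p = 0.0178, limma), a call that was lost when the shControl 3, shMMP9 2 or shMMP9 3 library was left out, with adjusted p of 0.0501, 0.0770 and 0.0537 in limma. CD151 stood at 234, 251 and 238 in shControl and at 207, 206 and 218 in shMMP9. Each shMMP9 library was below each shControl library, and the log2 fold change was -0.20 (SE 0.0484, adjusted p = 0.00356, limma).

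TSPAN4, the migrasome tetraspanin, stood at 29.6, 29.4 and 28.0 scaled counts in shControl and at 45.0, 41.0 and 46.7 in shMMP9. Its lowest shMMP9 library was well above its highest shControl library, and the log2 fold change was 0.59 (SE 0.0646, adjusted p = 4.38e-06, limma). TSPAN7, known from neurons and from X-linked intellectual disability, was barely detected, with 19, 10 and 8.7 estimated reads in shControl and 3, 5 and 3 in shMMP9. It was therefore not tested with the other members. In a fit without the filter its log2 fold change was -0.34 (SE 0.132, adjusted p = 0.0438, limma).

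TSPAN10, TSPAN14 and TSPAN15 belong to the TspanC8 group, whose members bind the sheddase ADAM10 and carry it to the cell surface. The abundant one, TSPAN14, stood at 152, 159 and 156 in shControl and at 151, 149 and 149.8 in shMMP9. Its groups were separated by less than 1 scaled count, and the log2 fold change of -0.05 (95% interval -0.15 to 0.05, adjusted p = 0.352, limma) was not called. TSPAN10, a tetraspanin of pigment cells, stood at 4.49, 7.60 and 6.31 in shControl and at 3.29, 3.33 and 4.21 in shMMP9. The shControl libraries varied more than the shMMP9 libraries, and the lowest of them was near the highest shMMP9 library. Its log2 fold change was -0.61 (SE 0.159, adjusted p = 0.00495, limma), and -0.40 with a pseudocount of 4. NPLOC4, named for its position, covers most of TSPAN10 on the opposite strand and was higher in shMMP9, at 0.25; since the strand setting of the counts is not given in the sources used here, reads of these genes may not be told apart. TSPAN15 had the largest change of the members but rested on few reads, 21, 18 and 6 in shControl and 61, 49 and 40 in shMMP9. These correspond to 0.748, 0.585 and 0.224 scaled counts against 2.05, 1.94 and 1.48. The fitted log2 fold change of 0.90 (SE 0.155, adjusted p = 0.000233, limma) depends on the pseudocount, with 1.49 at 0.25, 0.37 at 4 and 1.91 in limma-voom on estimated reads.

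Levels of different genes were compared per kilobase of annotated exon. The order depends on these lengths, such as 17.9 kb for TSPAN14, 7.39 kb for CD81 and 4.165 kb for CD9. Which transcripts the cells express was not determined. Before division by length, TSPAN14 (mean scaled count 155) and CD81 (109) stood above CD9 (81.1) in shControl. In shControl the order was CD63 (118 ± 3.61 scaled counts per kilobase, SD, n = 3), CD151 (61.2 ± 2.30), CD9 (19.5 ± 0.865), CD81 (14.8 ± 1.15), TSPAN14 (8.69 ± 0.211), CD82 (6.61 ± 0.0283), TSPAN4 (4.97 ± 0.144), TSPAN10 (1.29 ± 0.330), TSPAN15 (0.196 ± 0.101) and TSPAN7 (0.142 ± 0.0652). TSPAN15 and TSPAN7 did not differ beyond their spread there. The order of the 10 group means was the same in shMMP9, where CD63 stood at 169 ± 1.39, CD151 at 53.4 ± 1.76 and CD9 at 33.0 ± 0.901. CD82 at 7.63 ± 0.427 and TSPAN4 at 7.57 ± 0.504 did not differ beyond their spread in shMMP9. Nor did TSPAN10 at 0.761 ± 0.110 and TSPAN15 at 0.689 ± 0.115, so their order there is not settled. With the longest transcript as the length, CD82 came before TSPAN14 in both groups, TSPAN4 came before TSPAN14 in both groups, and TSPAN4 came before CD82 in shMMP9.

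As shares of the summed per-kilobase level of the 10 genes, CD63 went from 50.1 ± 1.04% in shControl to 57.7 ± 0.701% in shMMP9 (SD, n = 3). CD9 went from 8.27 ± 0.271% to 11.3 ± 0.317%. The share of CD151 went the other way, from 26.0 ± 0.729% to 18.3 ± 0.439%, and that of CD81 from 6.28 ± 0.447% to 4.08 ± 0.184%. CD82, although called higher, had shares of 2.81 ± 0.0574% and 2.61 ± 0.136%. None of the 10 shares overlapped between the groups. Each gave an exact two-sided permutation p = 0.1 (0.1 after Benjamini-Hochberg adjustment over 10 genes), the smallest possible here. For CD81, CD151, TSPAN7, TSPAN10 and TSPAN14 this outcome was fixed in advance and adds no support. Each shMMP9 library was below each shControl library for these genes, and above for the summed level. In scaled count the groups did not overlap for 62.7% of all tested genes, which is not a background for shares. The shares of a library have a fixed sum, so a share can fall where the level does not. That of TSPAN14, not called at a log2 fold change of -0.05, went from 3.69 to 2.87%. For CD151 the log2 fold change was only -0.20. The summed level itself was 236, 241 and 229 in shControl and 289.5, 291 and 295 in shMMP9.

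**Figure D2:**
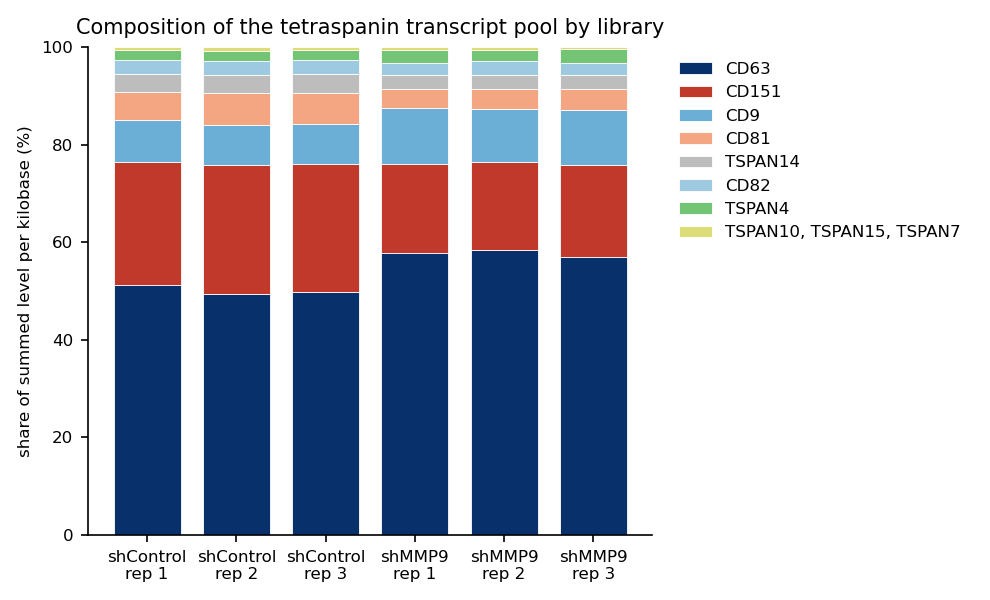
Share of each gene (percent, stacked) in the summed scaled count per kilobase of exon of the 10 genes, one bar per library. The CD63 and CD9 bands are wider in the 3 shMMP9 bars and the CD151 and CD81 bands narrower.

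CD151 and TSPAN4 are neighbours on chromosome 11, at 832843 to 839831 and 842808 to 867116 on the plus strand of GRCh38, with 2976 bases between them, yet one fell and the other rose. The per-kilobase ratio of TSPAN4 to CD151 was 0.0852, 0.0789 and 0.0794 in shControl and 0.147, 0.134 and 0.144 in shMMP9. Every shMMP9 library was above every shControl library for TSPAN4 and below for CD151, so this ratio had to separate the groups. Its exact two-sided permutation p = 0.1, the smallest possible, was thus fixed in advance and adds no support. Among the 17 tested genes that start within 100 kb of the TSPAN4 start, TSPAN4 itself was the 1 that rose, and 10 fell, while 25% of all tested genes rose and 32.5% fell. POLR2L, an RNA polymerase subunit gene that starts between them and overlaps the CD151 gene on the opposite strand, stood at 0.18 (adjusted p = 0.179, limma). AP006623.1 lies within the TSPAN4 gene on the opposite strand and stood at -0.42, with means of 2.25 scaled counts in shControl and 1.43 in shMMP9. Since the strand setting of the counts is not given, reads of these overlapping genes may not be told apart from those of CD151 and TSPAN4. The window and the neighbours named with it were chosen after values were seen. CEND1, a neuronal cell cycle exit gene, had the lowest value in it, at -1.42, and CHID1 on the other side stood at -0.42.

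**Figure D3:**
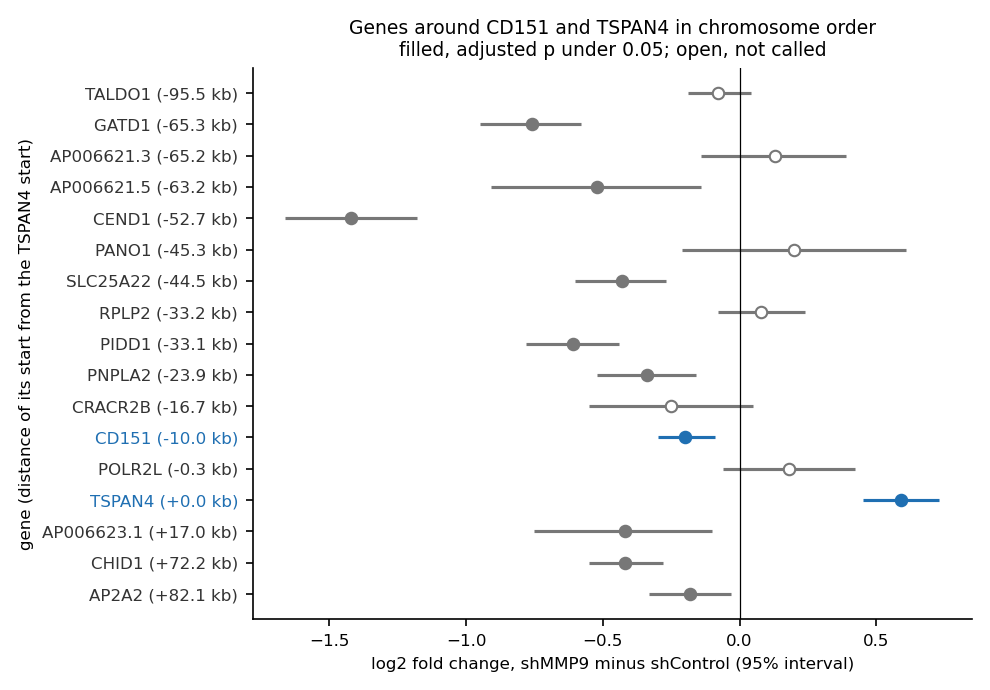
Log2 fold change (points, with 95% intervals) of the 17 tested genes that start within 100 kb of the TSPAN4 start, in chromosome order, with the distance of each start in kb. TSPAN4 at 0.59 is the filled point to the right of 0, while 10 filled points, CD151 among them, lie to the left. Of all tested genes 25% were called higher and 32.5% lower.

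The family has 33 genes on the list used here, and of the 23 others 17 were listed and tested. Of these 5 rose and 3 fell, 47.1% called, which is below the 57.5% of all tested genes, and their median log2 fold change was 0.15 against -0.05 over all tested genes. TSPAN13 stood at 36.0, 32.1 and 31.0 in shControl and at 136, 134 and 127 in shMMP9, a ratio of means of 4.01 and the largest log2 fold change of the tested family, 1.97 (SE 0.0613, adjusted p = 1.79e-11, limma). Per kilobase it was at rank 4 of the family in shControl, at 14.8 ± 1.17, and at rank 2 in shMMP9, at 59.6 ± 2.15. In shControl it did not differ beyond its spread from CD81, and with the longest transcript as the length its ranks were 6 and 4. TSPAN12, known for its part in Norrin and frizzled signalling, went from 6.99 ± 1.18 to 21.7 ± 0.535 (log2 fold change 1.52). TSPAN11 rose by 0.79, ROM1, a photoreceptor disc tetraspanin, by 0.89 and TSPAN3 by 0.32. TSPAN5, another TspanC8 gene, had a log2 fold change of -0.64, and TSPAN2 one of -0.61, which was -0.25 with a pseudocount of 4, -0.97 with one of 0.25 and -1.19 in limma-voom. TSPAN17, the remaining called gene, stood at -0.20 (adjusted p = 0.0354, limma), a call lost when the shControl 2, shControl 3, shMMP9 1 or shMMP9 2 library was left out (limma adjusted p of 0.119, 0.127, 0.162 and 0.0667). It was also lost with either other scaling (0.111 for each) and with no variance trend in limma (0.0807). TSPAN1, TSPAN6, TSPAN9, TSPAN18, TSPAN19, TSPAN31, TSPAN33, CD37 and UPK1A were not called, with log2 fold changes from -0.26 to 0.21, although TSPAN6 passed as higher without shControl replicate 1 (adjusted p = 0.0238, limma). The 10 members held 79.7 ± 0.433% of the summed per-kilobase level of all 27 listed tetraspanins in shControl and 72.0 ± 0.544% in shMMP9 (SD, n = 3).

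**Figure D4:**
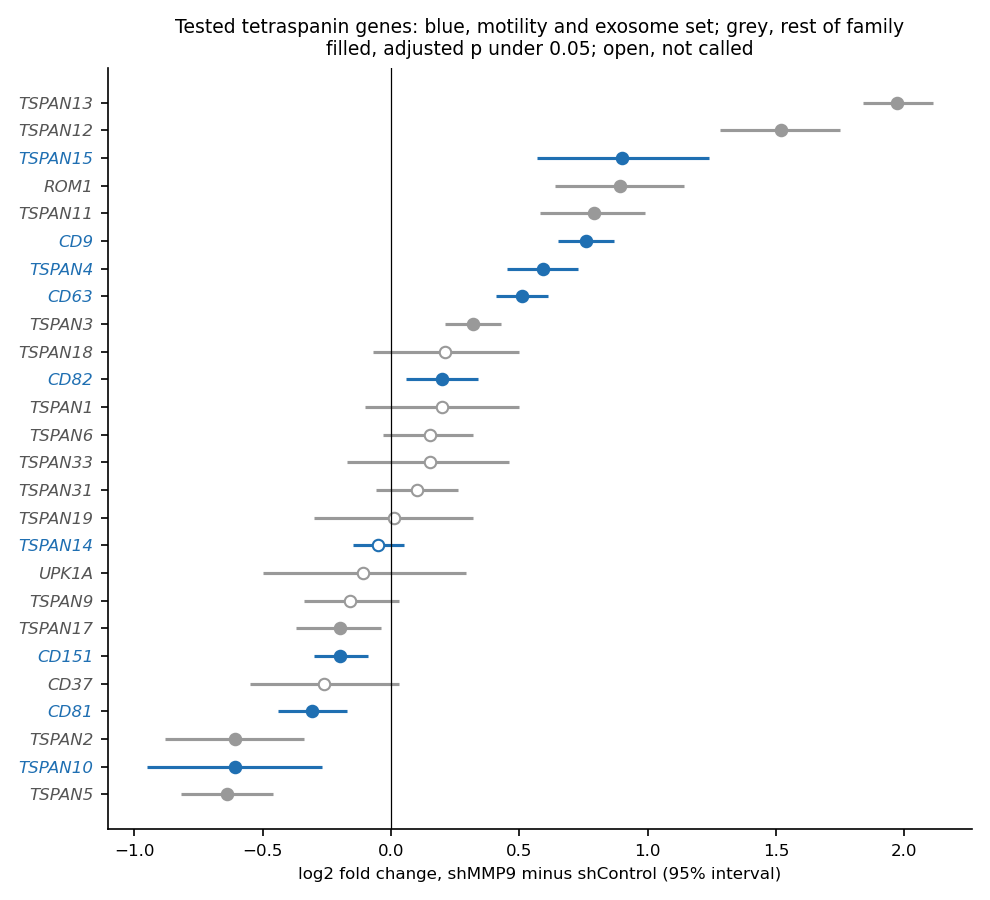
Log2 fold change with 95% interval for the 26 tested tetraspanin genes, the 9 tested members in blue and the 17 others in grey, filled where called. On this scale, with a pseudocount of 1, TSPAN13 at 1.97 and TSPAN12 at 1.52 lie above every member, of which TSPAN15 at 0.90 and CD9 at 0.76 are the highest. The order of TSPAN12 and TSPAN15 depends on the scale: TSPAN15 stood at 1.91 in limma-voom, and TSPAN12 reached at most 1.64 in any setting.

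Transcripts of the TspanC8 group were set beside those of ADAM10, the metalloproteinase that the group regulates, and of proteins that ADAM10 sheds. ADAM10 stood at 115, 115 and 119 in shControl and at 165, 174 and 158 in shMMP9 (log2 fold change 0.50, adjusted p = 1.54e-06, limma). Per kilobase, TSPAN14 held 39.0 ± 2.35% of the level of the 6 TspanC8 genes in shControl and 41.5 ± 0.746% in shMMP9, and TSPAN15 held 0.895 ± 0.511% and 3.41 ± 0.588% (SD, n = 3). TSPAN5 held 14.4 ± 0.528% and 9.95 ± 0.607%. Of the 22 tested genes of this list 6 rose and 10 fell (72.7% called, against 57.5% of all tested genes), with a median of -0.10. The list includes the members TSPAN10, TSPAN14 and TSPAN15. Among the substrates, the adhesion molecules L1CAM and ALCAM had log2 fold changes of -1.35 and -0.82, the receptor tyrosine kinase AXL one of -1.22 and the endocytic receptor LRP1 one of -0.77. PRNP, the prion protein gene, rose by 1.32.

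Of 26 tested lateral partners of tetraspanins 12 rose and 10 fell, with a median of 0.08; 84.6% were called, against 57.5% of all tested genes. ITGA3 and ITGA6 encode the laminin-binding chains that pair with CD151. ITGA3 stood at 379, 449 and 438 in shControl and at 485.5, 498 and 520 in shMMP9, a log2 fold change of 0.25. ITGA6 went from 86.1 ± 5.99 to 273 ± 16.0 (1.65), while ITGB4, the hemidesmosomal chain that pairs with the ITGA6 product, went from 50.4 ± 6.50 to 9.75 ± 1.29 (-2.26). ITGB1 rose by 0.22, ITGB3 by 1.21 and ITGA2 by 1.42. Of the EWI proteins that bind CD9 and CD81 directly, PTGFRN went from 112 ± 5.30 to 185 ± 1.08 (0.73), and IGSF8 stood at -0.13 (adjusted p = 0.143, limma), a value that was called lower without shControl replicate 1 (adjusted p = 0.0142). HBEGF, the growth factor precursor that CD9 binds, stood at 29.8, 29.9 and 27.9 in shControl and at 14.8, 15.8 and 13.9 in shMMP9, so it fell where CD9 rose (log2 fold change -0.94). EGFR, which encodes its receptor, stood at -1.16 on the log2 fold change scale, and TGFA, an EGFR ligand gene, at 1.74. ADGRG1, an adhesion receptor that associates with CD81, stood at 0.10 (adjusted p = 0.151, limma), and passed as higher under the other scalings, at adjusted p = 0.0377 for median-of-ratios and 0.0239 for total scaling.

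Of 45 genes of multivesicular body formation and vesicle release 12 rose and 16 fell, 62.2% called, near the 57.5% of all tested genes, with a median of -0.07. PDCD6IP (ALIX) stood at -0.01 (95% interval -0.11 to 0.09, adjusted p = 0.895, limma) and SDCBP (syntenin) at 0.06 (95% interval -0.05 to 0.17, adjusted p = 0.329, limma). TSG101, an ESCRT-I subunit gene, stood at 0.17 (adjusted p = 0.0279, limma), but leaving out the shControl 2, shControl 3, shMMP9 1 or shMMP9 2 library (limma adjusted p of 0.0516, 0.134, 0.126 and 0.0593) or the variance trend (0.0804) lost the call. Of the small GTPases that dock multivesicular bodies, RAB27B went from 13.1 ± 1.53 to 8.70 ± 0.605 (-0.53). RAB27A stood at 0.20 (adjusted p = 0.0974, limma), but passed as higher when libraries were scaled by median-of-ratios (adjusted p = 0.0436) or by their total (adjusted p = 0.0421). UNC13D, a priming factor that acts with RAB27, had the lowest value of this list, from 27.7 ± 1.61 to 5.48 ± 0.752 (-2.15). RAB31 stood at -0.92 and the ESCRT-III gene CHMP4C at -0.67, while CHMP4A rose by 0.73. The syndecan genes SDC1 and SDC2, whose products bind syntenin, had log2 fold changes of -0.79 and 0.82.

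Of 10 migrasome genes other than TSPAN4, 4 rose and 4 fell, with a median of -0.11. The share called was 80%, and 57.5% over all tested genes. ITGA5, whose product marks the sites where migrasomes form, went from 215 ± 7.66 to 320 ± 5.15 (0.57), and RAB35 rose by 0.35 and EOGT by 0.36. SGMS2, a sphingomyelin synthase needed for migrasome assembly, went from 13.3 ± 1.25 to 3.47 ± 0.325 (-1.68), PIP5K1A stood at -0.30 and ROCK1 at -0.48.

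Of 22 tested genes of the late endosome, the CD63 cargo route and melanosome formation 10 rose and 7 fell, with a median of 0.19, so that 77.3% were called where 57.5% of all tested genes were. LAMP1, a lysosomal membrane protein gene, stood at 178, 180 and 177 in shControl and at 258, 247 and 256.5 in shMMP9, a log2 fold change of 0.51 beside 0.51 for CD63. TIMP1, whose product is a metalloproteinase inhibitor and a ligand of CD63, went from 164 ± 6.82 to 489 ± 8.34 (1.57). APOE, which acts with CD63 in sorting PMEL in pigment cells, went from 10.7 ± 1.10 to 1.26 ± 0.275 (-2.38, or -1.49 with a pseudocount of 4). PMEL itself stood at 1.85, 1.75 and 1.49 in shControl and at 1.44, 1.86 and 1.96 in shMMP9, so its groups overlapped (0.03, adjusted p = 0.876, limma). GPNMB stood at -0.51, the cholesterol exporter gene NPC1 at -0.69 and RAB32 at -0.78.

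**Figure D5:**
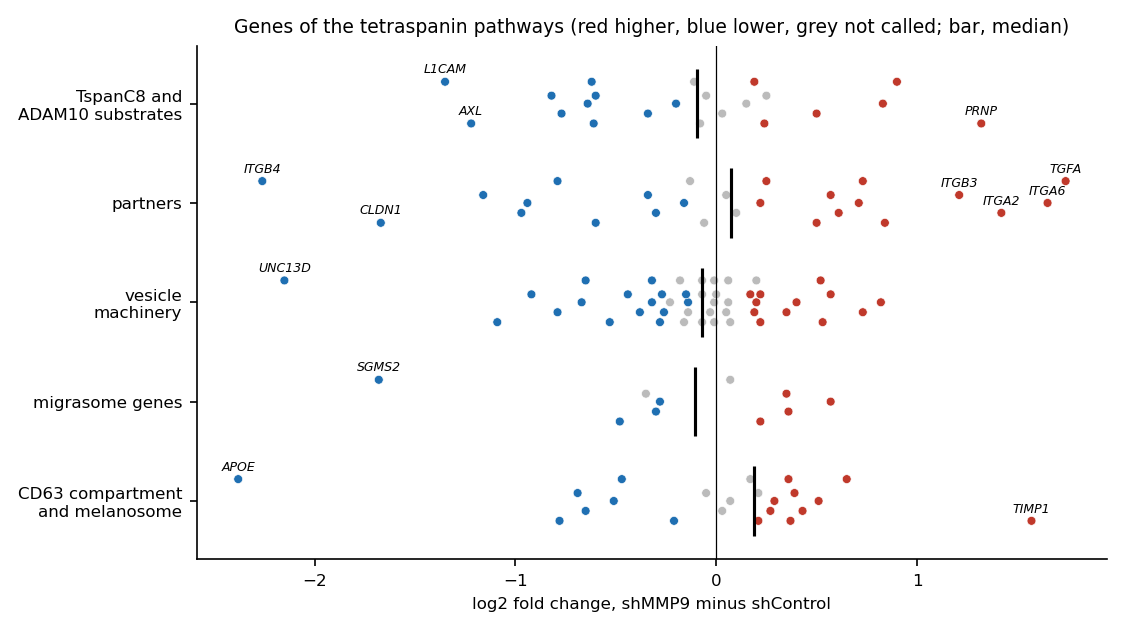
Log2 fold change of every tested gene of the 5 pathway lists (points; red called higher, blue called lower, grey not called) with the list median as a bar. Medians lie between -0.11 and 0.19, and genes such as UNC13D, APOE, ITGB4, TGFA and TIMP1 lie far from them.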

How the data were processed

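RNA of 3 shControl and 3 shMMP9 libraries of A375 cells was sequenced, and groups came from the sample titles. Per the submitters' processing notes, STAR 2.6.1d, Partek and hg38 were used; how reads were counted, with which strand setting and filter, is not given in these sources. The deposited values are on a log2 scale, although the table is named as counts. They behave as log2(scaled count + 1): the 75th percentile of the linear values was 45.3 to 45.4 in each library, and 64.6 to 67.8% of values were whole multiples of 1 step within 0.01 reads, from which reads were estimated. Scaled counts below 1 therefore rest on few reads.

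Because the values are not raw counts, limma 3.58.1 (R 4.3.3, variance trend, pseudocount of 1 as deposited) was fitted to the 17194 of 18539 genes with at least 15 reads in all and, in 3 libraries, the equivalent of 10 at median depth, and p-values were adjusted over all of them by the Benjamini-Hochberg method. The script was tested on simulated data. Replicates differed by more than counting noise (chi-square per gene 2.51 to 14.2 between libraries of a group, highest for pairs with shControl replicate 1), so none was treated as a duplicate. Lengths and positions came from GENCODE release 29, which held 99.9% of the symbols, and figures from matplotlib 3.10.9.

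The members and gene lists were chosen with earlier results of these data known, and no test of a list was made. Named genes are MMP9, the members, the other tested tetraspanins, 16 fixed anchors and up to 6 genes of each further list with the largest called change, a mean scaled count of 5 or more and groups that do not overlap. Alternatives were the replicate block, leaving out each library, other scalings, pseudocounts of 0.25 and 4, no filter, limma-voom, no variance trend, a threshold of 0.01 and the longest transcript as length.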

Additional observations from a re-analysis of the deposited data

How the results depend on the processing

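Over 15 alternatives for each of the 9 tested members, 131 of 135 kept their call or its absence, 4 lost the call and no called value changed sign; TSPAN14, not called, went from -0.05 to 0.01 with total scaling. The 4 lost calls were all of CD82, 3 of them without a library and the other at a threshold of 0.01. Without one library in turn, log2 fold changes ran from 0.72 to 0.79 for CD9, 0.49 to 0.53 for CD63, 0.55 to 0.64 for TSPAN4, -0.36 to -0.25 for CD81, -0.22 to -0.17 for CD151, -0.79 to -0.46 for TSPAN10 and 0.76 to 1.01 for TSPAN15. With median-of-ratios or total scaling CD151 stood at -0.14. Equal replicate numbers did not pair the libraries (correlations of their deviations 0.040, -0.130 and -0.026), and with the replicate number as a block 5 members were higher and 3 lower, with 4211 genes called higher and 5486 lower in all against 4304 and 5584 without it. Median-of-ratios scaling gave 4949 higher and 4945 lower. Counts below about 1 scaled count (TSPAN7, TSPAN15 in shControl) are limited by depth. Protein levels and vesicle release were not measured.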

Other observations

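Of 10 tested genes that start within 500 kb of TSPAN15, 8 fell and 1 rose, with a median log2 fold change of -0.35, while TSPAN15 rose. Of 22 such genes around CD9, 7 fell and 3 rose (median -0.11), while CD9 rose. Around CD63, 11 of 33 rose and 6 fell (median 0.09). Around CD81, 3 of 5 rose and 2 fell (median 0.25), while CD81 fell. CD151 and TSPAN4 share a neighbourhood in which 6 of 36 rose and 18 fell (median -0.22), while CD151 fell and TSPAN4 rose. Around TSPAN10, which fell, 9 of 42 rose and 16 fell (median -0.07). Around CD82, which rose, 2 of 5 rose and 1 fell (median 0.21). TSPAN14, with 6 such genes, and TSPAN7, with 4, had medians of -0.05 and 0.01. The window was chosen after values were seen, and 25% of all tested genes rose and 32.5% fell.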
